A study of Rattus norvegicus with 16 samples.

Results

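Mitosis and cytokinesis genes were followed across 4 rat tendons as a set of 36 genes that encode the machinery of cell division. Members were found by their gene symbol in the deposited count table, where 35 of the 36 were matched among 23285 genes, and the cyclin gene Ccnb2 was not analysed here. All 35 passed the filter on low counts that left 16948 genes for testing. Total RNA of Sprague Dawley rats was sequenced from the flexor tendon of the forepaw, the supraspinatus tendon of the shoulder, the Achilles tendon and the patellar tendon of the knee. Each tendon had 4 libraries, 16 in total, for comparisons of the tendons with one another. No treatment, mutation, age or sex is given in the labels, and the animals of all groups share the strain. The labels do not say whether the libraries of a tendon came from separate animals, so p-values measure only the spread between these samples. The flexor and supraspinatus tendons are called forelimb here, and the Achilles and patellar tendons hindlimb.

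Cells entering mitosis raise the kinase Cdk1 with its cyclins, condense their chromosomes, attach them to the spindle through kinetochores and hold the sister chromatids together until the spindle checkpoint is satisfied. The anaphase-promoting complex with its activator Cdc20 then releases separase, and the central spindle and the actomyosin ring divide the cell. Many of these genes are transcribed together late in the cell cycle and are kept down in resting cells by the DREAM complex, so their mRNA is widely used as a marker of dividing cells. Adult tendon is known as a tissue in which few resident cells divide.

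Library totals were 92673343 to 102130759 counts in flexor, 81788059 to 101675519 in supraspinatus, 85403509 to 102491699 in Achilles and 63397591 to 74829951 in patellar libraries. At these totals, 3 counts in a library corresponded to between 0.0266 and 0.0485 CPM, the count relative to the library total. The lowest count of any member in any library was 9, for Cenpa in a supraspinatus library. Library sizes were adjusted by the trimmed mean of M-values, and CPM levels are compared between tendons and not between genes. All 8 tendon fibroblast markers were measured in each group. By edgeR's test at an adjusted p under 0.05, 3 were higher in the forelimb (Fmod, Thbs4 and Comp), 1 was lower (Col1a1) and 4 did not pass. Of all genes, 30.3% were higher and 28.5% lower. The median log2 difference of the 8 markers was 0.378. Their summed level, to which Col1a1 gave the highest count in each tendon, was 29300 to 44600 CPM in flexor, 38200 to 74400 in supraspinatus, 61600 to 133000 in Achilles and 52100 to 108000 in patellar libraries.

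Mitosis and cytokinesis genes were lower in the forelimb tendons than in the hindlimb tendons, and all 35 measured members passed the test in that direction (edgeR's quasi-likelihood test, Benjamini-Hochberg adjusted p under 0.05). Of all 16948 genes, 28.5% passed it as lower and 30.3% as higher. The median log2 difference of the members, forelimb minus hindlimb, was -2.63, with a range of -3.81 to -0.61, and the median of all genes tested was 0.0235. For 32 of the 35 members, every forelimb library lay below every hindlimb library, which held for 9.3% of all genes. The exceptions were Smc4, Espl1 and Tpx2. Flexor libraries lay below all hindlimb libraries for 35 of 35 members (17.6% of all genes), and supraspinatus libraries for 32 (16.1%). All 35 differed among the 4 tendons, as did 75.6% of all genes. The members were chosen with earlier results of these data known, so these counts describe the set and are not an independent test of it. In bulk tissue, fewer dividing cells, less mitotic RNA per cell and a larger share of RNA from other cells cannot be told apart. Skeletal muscle markers summed to 16100 to 59900 CPM in flexor and 126000 to 238000 CPM in supraspinatus libraries. They summed to 351 to 9500 CPM in Achilles and 309 to 31700 CPM in patellar libraries.

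The 4 tendons were also set against each other in pairs. Flexor tendon was below Achilles for 35 of 35 members (23.5% of all genes) with a median log2 difference of -2.81, and below patellar for 35 of 35 (24.7%) with a median of -2.65. Supraspinatus tendon was below Achilles for 34 of 35 (25.4%) with a median of -2.54, and below patellar for 34 of 35 (28.8%) with a median of -2.19. The member that did not pass either supraspinatus test was Tpx2. The members' levels summed to 103 to 123 CPM in flexor and 131 to 178 CPM in supraspinatus libraries, against 274 to 678 CPM in Achilles and 359 to 568 CPM in patellar libraries.

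**Figure D1:**
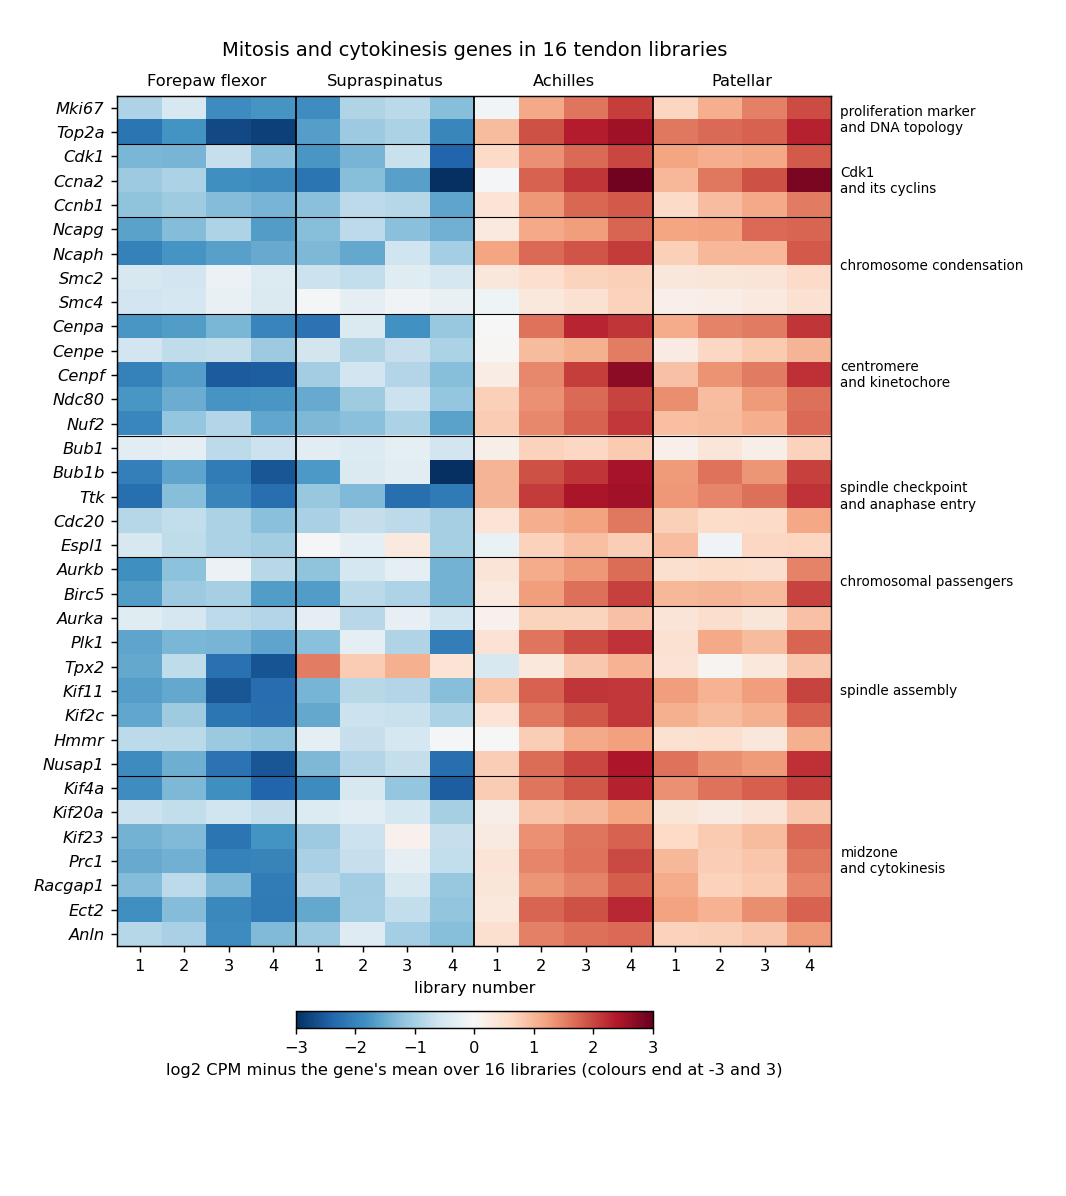
Level of 35 mitosis and cytokinesis genes (rows, grouped by role) in 16 libraries (columns, 4 per tendon). Colour is log2 CPM minus the mean of that gene over the 16 libraries, blue for lower and red for higher, and Tpx2 is the one row above its mean in all 4 supraspinatus libraries.

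Promoters of the set were searched for the motifs TTTGAA, the core of the cell cycle homology element that late cell cycle genes carry, and CCAAT, the box bound by the factor NF-Y. RefSeq (GRCr8) sequences of 250 bases before to 50 bases after the start were found for 32 of the 36 listed genes, Ccnb2 included, and none was used for Ccna2, Aurkb, Tpx2 or Racgap1. Both motifs were searched on both strands. On the reverse strand the homology motif reads TTCAAA. The box reads ATTGG there. Matches of the 2 motifs shared letters in 1 promoter, that of Mki67. The homology motif was present in 24 of the 32 promoters (75%) and in 18.3% of all 33469 promoters in that collection. The NF-Y box was present in 24 (75%) and in 37.5% of all promoters. Both were present in 20 (62.5%), against 7.41% of all promoters and 7.04% of the promoters of 21851 protein-coding genes, and 16 (50%) held at least 2 boxes, against 11.2% of all. In the window from 150 bases before the start, the homology motif was found in 75% of the members' promoters and 11.5% of all, and both motifs in 53.1% and 3.47%. Matches are a description of these windows, and no binding was measured. Ncaph, Bub1, Aurka and Kif2c held neither motif in this window.

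Sequences of 6 promoters are shown because their genes open or close the set: Cdk1 and Ccnb1 form the mitotic kinase, Cdc20 and Plk1 drive mitotic progress, Prc1 is the bundler of the central spindle, and Smc4 had the smallest forelimb to hindlimb difference. They are written 5′ to 3′ on the strand of the gene, with both motifs and their reverse complements in capitals. Cdk1 lies at chr20:19265043-19265342 on the plus strand, Ccnb1 at chr2:33655176-33655475 on the minus strand, Cdc20 at chr5:137255750-137256049 on the minus strand, Plk1 at chr1:186147408-186147707 on the plus strand, Prc1 at chr1:143659231-143659530 on the plus strand and Smc4 at chr2:155550012-155550311 on the plus strand, all in GRCr8.
Cdk1: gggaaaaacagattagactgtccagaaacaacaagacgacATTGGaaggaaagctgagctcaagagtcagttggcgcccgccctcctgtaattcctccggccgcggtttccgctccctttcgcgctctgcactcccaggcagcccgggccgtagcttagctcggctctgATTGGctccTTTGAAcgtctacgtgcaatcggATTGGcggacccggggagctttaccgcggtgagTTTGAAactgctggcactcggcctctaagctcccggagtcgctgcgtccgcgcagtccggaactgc
Ccnb1: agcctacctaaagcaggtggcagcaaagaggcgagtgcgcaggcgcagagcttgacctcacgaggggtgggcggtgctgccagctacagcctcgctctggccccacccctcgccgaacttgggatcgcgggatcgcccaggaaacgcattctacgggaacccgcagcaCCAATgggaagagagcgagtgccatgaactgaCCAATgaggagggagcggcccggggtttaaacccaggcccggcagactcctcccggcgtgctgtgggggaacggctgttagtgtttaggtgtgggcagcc
Cdc20: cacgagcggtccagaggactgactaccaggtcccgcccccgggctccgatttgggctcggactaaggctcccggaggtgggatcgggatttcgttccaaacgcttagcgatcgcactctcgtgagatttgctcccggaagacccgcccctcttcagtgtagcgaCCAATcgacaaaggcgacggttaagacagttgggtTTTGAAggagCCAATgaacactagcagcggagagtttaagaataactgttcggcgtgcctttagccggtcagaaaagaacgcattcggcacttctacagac
Plk1: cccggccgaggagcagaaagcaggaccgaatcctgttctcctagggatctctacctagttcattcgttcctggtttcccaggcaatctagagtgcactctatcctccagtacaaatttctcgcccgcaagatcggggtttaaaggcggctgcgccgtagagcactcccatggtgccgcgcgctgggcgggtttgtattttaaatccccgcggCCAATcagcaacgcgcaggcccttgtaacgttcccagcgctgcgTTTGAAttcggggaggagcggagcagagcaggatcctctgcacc
Prc1: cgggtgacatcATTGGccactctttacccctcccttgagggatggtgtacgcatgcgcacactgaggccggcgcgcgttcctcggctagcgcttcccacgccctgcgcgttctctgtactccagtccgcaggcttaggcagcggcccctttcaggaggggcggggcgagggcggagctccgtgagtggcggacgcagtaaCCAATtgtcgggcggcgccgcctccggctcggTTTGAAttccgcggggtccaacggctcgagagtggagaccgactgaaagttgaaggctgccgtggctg
Smc4: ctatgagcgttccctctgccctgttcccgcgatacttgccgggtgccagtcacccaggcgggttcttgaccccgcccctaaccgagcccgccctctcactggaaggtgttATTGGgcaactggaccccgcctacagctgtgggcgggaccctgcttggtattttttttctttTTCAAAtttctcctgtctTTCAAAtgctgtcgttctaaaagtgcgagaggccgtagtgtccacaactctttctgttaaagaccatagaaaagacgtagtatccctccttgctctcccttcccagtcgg
Cdk1 carried 2 homology motifs and 3 boxes, and Ccnb1 carried 2 boxes and no homology motif in this window. Smc4 carried 2 homology motifs on the reverse strand and 1 box. Plk1 is the one of these 6 whose homology motif lay after the annotated start.

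**Figure D2:**
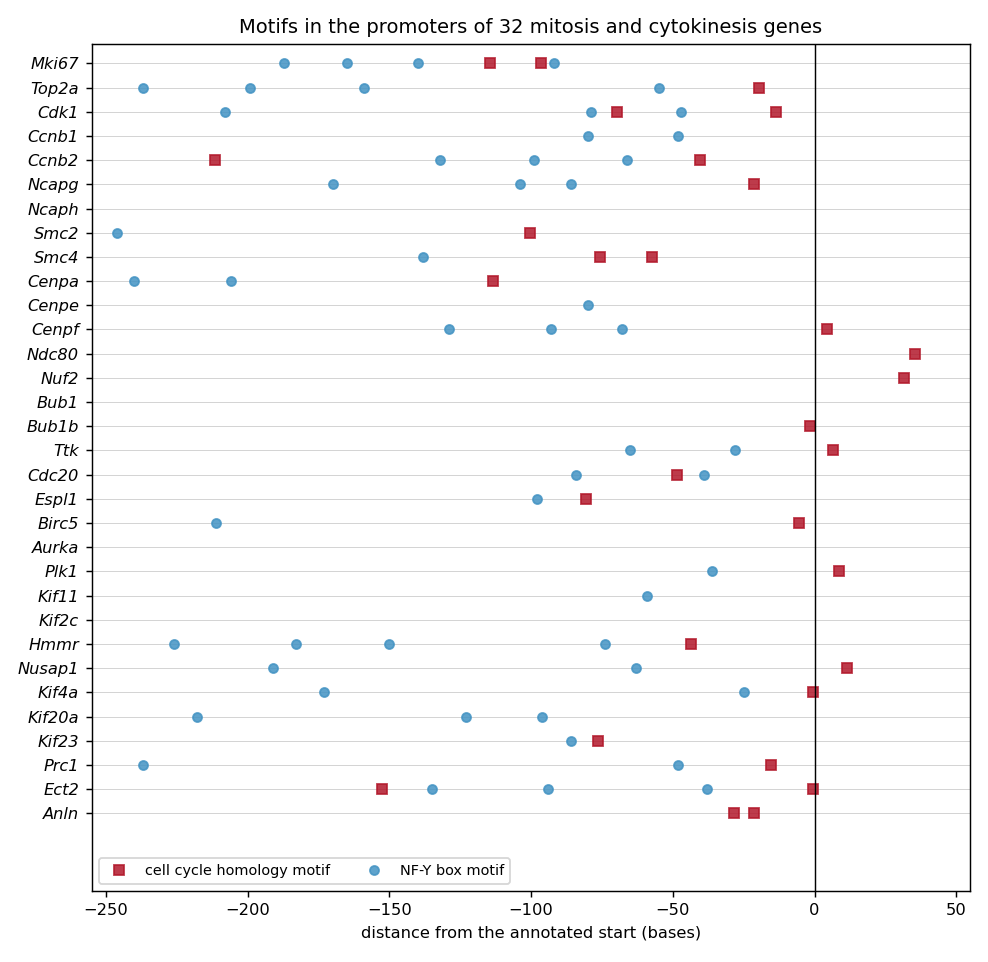
Positions of the 2 promoter motifs (squares, cell cycle homology motif; circles, NF-Y box motif) in the promoters of 32 genes, as distance in bases from the annotated start, with 250 bases before it and 50 after it. In 20 of the 32 rows both motifs are present, and 4 rows hold neither.

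Markers of proliferation and DNA topology were far lower in forelimb tendons. Mki67 encodes Ki-67, the coat of mitotic chromosomes, and had 3.595, 4.91, 1.86 and 1.999 CPM in flexor and 1.86, 3.71, 3.91 and 2.85 CPM in supraspinatus libraries, against 6.47, 15.2, 20.96 and 28.98 CPM in Achilles and 10.9, 14.7, 19.6 and 26.96 CPM in patellar libraries. Every forelimb library was below every hindlimb library, and the log2 difference was -2.54 ± 0.32 (SE; adjusted p = 1.03e-05). Top2a encodes topoisomerase II alpha, which untangles sister chromatids, and had 1.71, 2.27, 1.18 and 1.102 CPM in flexor and 2.46, 3.71, 4.07 and 2.02 CPM in supraspinatus libraries, against 15.1, 29.4, 40.2 and 46.1 CPM in Achilles and 23.5, 25.6, 27.03 and 39.2 CPM in patellar libraries. It had the largest difference of the set, -3.81 ± 0.26 (SE; adjusted p = 6.08e-08), and its highest forelimb library was below its lowest hindlimb library.

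Cdk1 and its cyclins all fell in the forelimb. Cdk1, the kinase that drives entry into mitosis, had 2.39, 2.35, 3.85 and 2.58 CPM in flexor and 1.85, 2.37, 3.89 and 1.18 CPM in supraspinatus libraries, against 9.28, 16.1, 20.2 and 25.1 CPM in Achilles and 14.1, 13.2, 13.9 and 22.2 CPM in patellar libraries. Forelimb and hindlimb libraries did not overlap, and the log2 difference was -2.71 ± 0.26 (SE; adjusted p = 8.04e-07). Ccna2, the cyclin that acts from S phase into early mitosis, averaged 1.07 ± 0.372 CPM in flexor tendons and 0.733 ± 0.369 in supraspinatus tendons, against 11.5 ± 7.61 in Achilles and 11.2 ± 6.22 in patellar tendons (SD, n = 4 each). Its log2 difference was -3.68 ± 0.42 (SE; adjusted p = 4.14e-06). Ccnb1, the cyclin of the mitotic kinase, had a log2 difference of -2.43 ± 0.21 (SE; adjusted p = 3.42e-07).

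All 4 condensin members were lower in the forelimb, by different amounts. Ncapg and Ncaph encode non-SMC subunits of condensin I, and their log2 differences were -2.63 ± 0.21 and -2.91 ± 0.21 (SE), while Smc2 and Smc4, the ATPase core shared by both condensins, had -0.97 ± 0.08 and -0.61 ± 0.10. Ncapg had 0.576, 0.716, 0.943 and 0.546 CPM in flexor and 0.736, 1.03, 0.74 and 0.647 CPM in supraspinatus libraries, against 2.22, 4.02, 4.36 and 6.06 CPM in Achilles and 4.16, 4.18, 5.93 and 6.07 CPM in patellar libraries. No forelimb library reached the hindlimb range. Smc4 had 20.9, 21.6, 26.96 and 23.1 CPM in flexor and 30.2, 25.9, 29.2 and 26.6 CPM in supraspinatus libraries, against 28.3, 38.7, 42.6 and 50.6 CPM in Achilles and 34.6, 35.6, 38.4 and 42.9 CPM in patellar libraries. For Smc4 the supraspinatus libraries overlapped Achilles 1 alone among hindlimb libraries, and the adjusted p was 0.000123. The difference in fold between the subunits was not tested.

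All 5 centromere and kinetochore members were lower in the forelimb, with log2 differences of -3.27 to -1.62. Cenpa, the histone H3 variant that marks centromeres, had 0.16, 0.171, 0.214 and 0.134 CPM in flexor and 0.11, 0.433, 0.153 and 0.259 CPM in supraspinatus libraries, against 0.585, 1.88, 2.99 and 2.704 CPM in Achilles and 1.301, 1.702, 1.79 and 2.697 CPM in patellar libraries. Forelimb and hindlimb libraries did not overlap. The forelimb values rest on 9 to 34 counts per library, and the log2 difference was -3.27 ± 0.35 (SE; adjusted p = 2.63e-06). Cenpf, a large kinetochore protein, had 0.944, 1.23, 0.671 and 0.69 CPM in flexor and 1.90, 2.61, 2.13 and 1.602 CPM in supraspinatus libraries, against 4.597, 10.6, 16.7 and 25.5 CPM in Achilles and 7.27, 10.03, 11.6 and 17.9 CPM in patellar libraries. Its 3 levels, flexor, supraspinatus and hindlimb, did not overlap, and the forelimb difference was -3.26 ± 0.31 (SE; adjusted p = 9.28e-07). Ndc80 and Nuf2, which pair in the complex that grips microtubules, had -2.83 ± 0.19 and -2.72 ± 0.22 (SE), and Cenpe, the kinetochore motor, had -1.62 ± 0.18.

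Spindle checkpoint and anaphase genes also fell, with the smallest differences in Bub1 and Espl1. Bub1, a checkpoint kinase at kinetochores, had 11.6, 12.1, 8.39 and 9.29 CPM in flexor and 11.7, 10.9, 11.9 and 9.76 CPM in supraspinatus libraries, against 16.4, 23.7, 22.4 and 25.1 CPM in Achilles and 16.1, 18.6, 16.4 and 23.6 CPM in patellar libraries. Forelimb and hindlimb libraries did not overlap, and the log2 difference was -0.92 ± 0.11 (SE; adjusted p = 9.87e-06). Its partner Bub1b and the checkpoint kinase Ttk had -3.37 ± 0.35 and -3.72 ± 0.28 (SE), and Cdc20 had -1.86 ± 0.15. Espl1, which encodes separase, had 2.41, 1.97, 1.73 and 1.61 CPM in flexor and 3.29, 2.75, 4.09 and 1.68 CPM in supraspinatus libraries, against 2.91, 5.46, 6.32 and 5.65 CPM in Achilles and 6.42, 3.09, 5.21 and 5.27 CPM in patellar libraries. Supraspinatus and hindlimb libraries overlapped, flexor libraries lay below all hindlimb libraries, and the difference was -1.08 ± 0.21 (SE; adjusted p = 0.000457).

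Chromosomal passengers fell too. Aurkb, the kinase that corrects wrong attachments and works at the midzone, had 1.48, 2.26, 4.71 and 2.97 CPM in flexor and 2.29, 3.71, 4.42 and 1.97 CPM in supraspinatus libraries, against 6.997, 11.6, 13.3 and 17.1 CPM in Achilles and 7.41, 7.83, 7.72 and 15.04 CPM in patellar libraries. The highest forelimb value lay below the lowest hindlimb value, with a log2 difference of -1.86 ± 0.27 (SE; adjusted p = 4.24e-05). Birc5, which encodes survivin, the partner that places the kinase, had -2.67 ± 0.27 (SE; adjusted p = 1.31e-06).

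Spindle assembly genes other than Tpx2 were lower in both forelimb tendons. Aurka, the centrosome kinase that Tpx2 protein activates, had 4.08, 3.74, 3.04 and 2.85 CPM in flexor and 4.34, 2.98, 4.45 and 3.46 CPM in supraspinatus libraries, against 5.79, 8.44, 8.36 and 9.802 CPM in Achilles and 6.94, 7.69, 6.81 and 9.81 CPM in patellar libraries. The groups did not overlap, and the log2 difference was -1.14 ± 0.14 (SE; adjusted p = 6.4e-06). The kinase gene Plk1 had -2.67 ± 0.29, the bipolar spindle motor Kif11 -3.15 ± 0.23, the microtubule depolymerase Kif2c -2.77 ± 0.27, the spindle protein Nusap1 -3.36 ± 0.29 and Hmmr, a hyaluronan receptor that also binds the spindle, -1.42 ± 0.18 (SE).

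Midzone and cytokinesis genes fell in all 7 cases. Kif4a, the motor that works with Prc1 at the midzone, had 0.679, 0.968, 0.681 and 0.464 CPM in flexor and 0.662, 1.79, 1.12 and 0.437 CPM in supraspinatus libraries, against 4.29, 7.74, 9.19 and 12.6 CPM in Achilles and 6.52, 7.84, 8.76 and 10.7 CPM in patellar libraries. Prc1, which bundles the microtubules of the central spindle, had 5.25, 5.47, 3.65 and 3.68 CPM in flexor and 7.54, 9.21, 12.3 and 8.88 CPM in supraspinatus libraries, against 19.9, 41.2, 46.3 and 59.2 CPM in Achilles and 29.6, 25.02, 26.4 and 44.8 CPM in patellar libraries. Both separated forelimb from hindlimb libraries without overlap, with log2 differences of -3.33 ± 0.30 (SE; adjusted p = 4.91e-07) and -2.47 ± 0.21 (SE; adjusted p = 3.42e-07). Kif23 and Racgap1, which form the centralspindlin complex, had -2.298 ± 0.25 and -2.32 ± 0.24, the exchange factor Ect2 -3.001 ± 0.25, the scaffold of the contractile ring Anln -2.22 ± 0.21 and the motor Kif20a -1.27 ± 0.14 (SE).

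**Figure D3:**
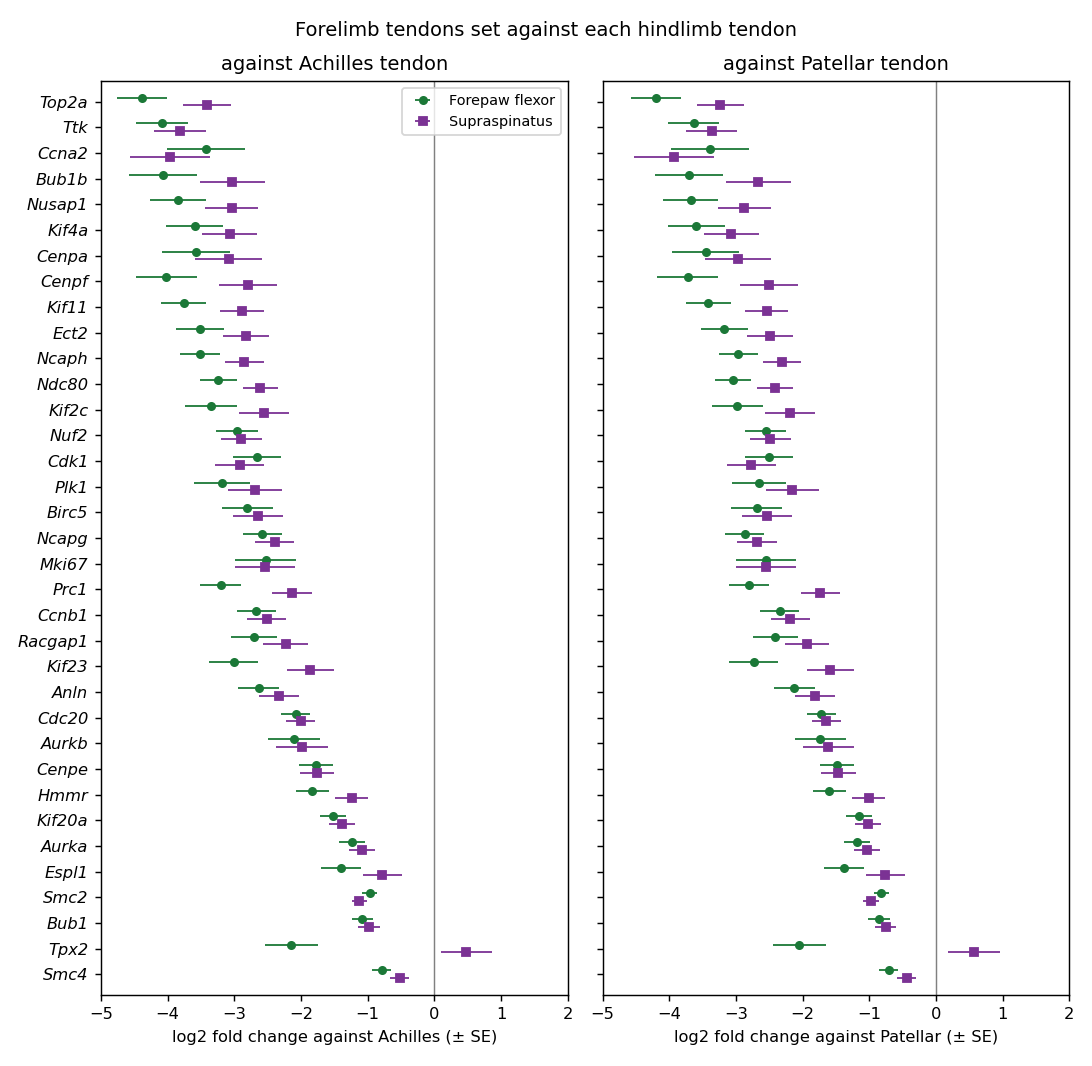
Log2 fold change of each of 35 genes in forepaw flexor (green circles) and supraspinatus (purple squares) tendon against Achilles tendon (left) and patellar tendon (right), with the SE as bars and genes ordered by the forelimb to hindlimb difference. Flexor values lie below 0 for all 35 genes, and Tpx2 is the gene whose supraspinatus values lie above 0.

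Tpx2 broke the pattern in supraspinatus tendon. Tpx2 encodes the protein that nucleates spindle microtubules and activates Aurora A, and it had 3.97, 6.79, 2.44 and 1.92 CPM in flexor and 33.8, 19.7, 24.3 and 15.3 CPM in supraspinatus libraries, against 8.31, 14.5, 20.1 and 23.9 CPM in Achilles and 15.7, 12.3, 14.4 and 20.3 CPM in patellar libraries. Flexor libraries were below all others, and supraspinatus libraries overlapped both hindlimb tendons. It was the one member whose mean in a forelimb tendon was above its mean in a hindlimb tendon. Supraspinatus minus Achilles was 0.48 ± 0.38 (SE; adjusted p = 0.317) and supraspinatus minus patellar was 0.57 ± 0.38 (SE; adjusted p = 0.219), and neither passed the test. Flexor minus Achilles was -2.15 ± 0.40 (SE; adjusted p = 0.000565) and flexor minus patellar -2.05 ± 0.40 (SE; adjusted p = 0.000679), and supraspinatus minus flexor was 2.62 ± 0.41 (SE; adjusted p = 0.000123). The forelimb average was -0.79 ± 0.27 (SE; adjusted p = 0.0223).

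Tpx2 made up 11.7 to 21.1% of the members' summed CPM in supraspinatus and 1.87 to 5.52% in flexor libraries, against 3.03 to 3.59% in Achilles and 3.35 to 4.38% in patellar libraries. Across the 16 libraries its log2 CPM correlated at 0.522 with the mean of the other members. The other 34 members had correlations of 0.873 to 0.994, with a median of 0.974, and the points share tendon groups, depth and scaling.

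RefSeq places Tpx2 on chromosome 3 between Bcl2l1 and Mylk2, with Foxs1 beyond Mylk2. Mylk2 encodes the myosin light chain kinase of skeletal muscle and had 166, 133, 53.5 and 114 CPM in flexor and 1376, 934, 1007 and 1202 CPM in supraspinatus libraries, against 2.33, 26.4, 5.99 and 27.8 CPM in Achilles and 113, 7.05, 2.79 and 23.3 CPM in patellar libraries. All supraspinatus libraries were above all others. Skeletal muscle markers summed to 16100 to 59900 CPM in flexor and 126000 to 238000 CPM in supraspinatus libraries, against 351 to 9500 CPM in Achilles and 309 to 31700 CPM in patellar libraries. Satellite cell and myoblast markers summed to 13.1 to 42.4 CPM in flexor and 90.1 to 132 CPM in supraspinatus libraries, against 0.868 to 9.57 CPM in Achilles and 1.14 to 13.8 CPM in patellar libraries. With the muscle markers as a covariate, the Tpx2 difference was -1.41 for forelimb against hindlimb (adjusted p = 0.0979) and 2.30 for supraspinatus against flexor (adjusted p = 0.00187). With Mylk2 as a covariate they were -1.57 (adjusted p = 0.0701) and 2.09 (adjusted p = 0.0076). Supraspinatus minus Achilles turned to -0.31 with the muscle markers and -0.60 with Mylk2 (adjusted p = 0.842 and 0.704), and supraspinatus minus patellar to -0.21 and -0.45 (adjusted p = 0.881 and 0.734). Every supraspinatus library lay above all others in the muscle marker sum and in Mylk2. Tendon and covariate are thus confounded, and the values with a covariate cannot separate them. Whether counting used strand is not given in the sources used here. The part of muscle cells, satellite cells or reads from Mylk2 in the Tpx2 level was not tested.

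Genes outside the set whose levels were most like those of Tpx2 over the 16 libraries, by Pearson correlation of log2 CPM, included Bst1, Tnc, Hoxc4, Cenpn, Erich1, H2afz, Drc1, Chfr and Mat2b, with correlations of 0.901 to 0.949. Cenpn, a centromere protein, averaged 3.93 CPM in flexor and 8.31 in supraspinatus, against 8.56 in Achilles and 8.73 in patellar tendon. The cytokinesis kinase gene Cit was also lowest in flexor tendon, with a mean of 2.92 CPM in flexor and 13.4 in supraspinatus, against 12.4 in Achilles and 12.7 in patellar tendon. Supraspinatus minus flexor passed the test for Cenpn, at 1.08 ± 0.17 (SE; adjusted p = 0.000112), and for Cit, at 2.202 ± 0.26 (SE; adjusted p = 1.6e-05), and supraspinatus minus Achilles did not, at -0.04 ± 0.16 (SE; adjusted p = 0.845) and 0.12 ± 0.25 (SE; adjusted p = 0.71). The genes most like the mean of the members were instead Ckap2, Cep55, Kif20b, Cdkn3, Cdca3, Knstrn, Cks2, Mastl, Melk and Spc25, with correlations of 0.987 to 0.995.

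**Figure D4:**
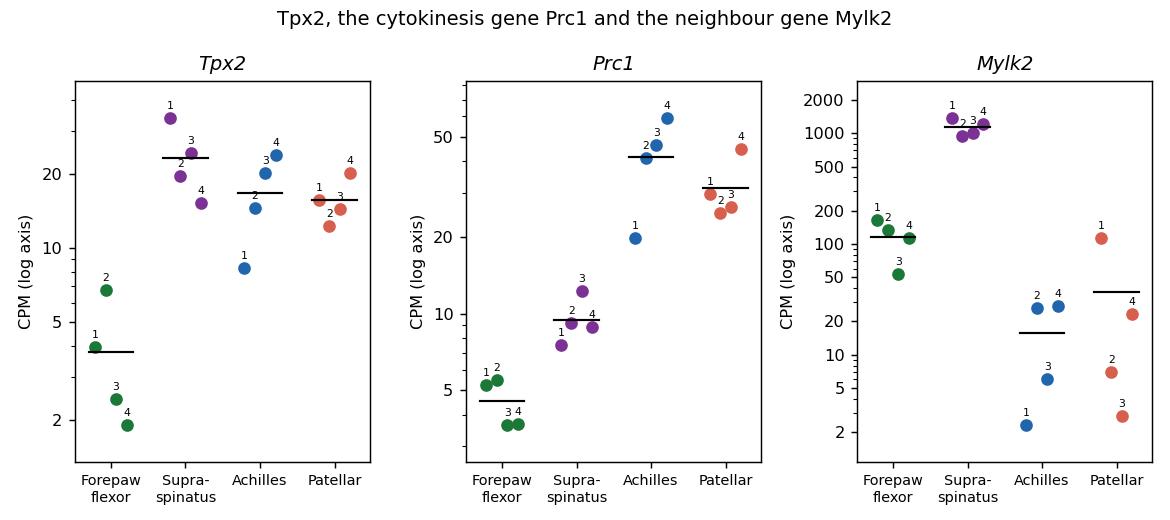
CPM on log axes of Tpx2, Prc1 and Mylk2 in each library, with the library number above each point and the mean of 4 libraries as a bar. Tpx2 reaches 15.3 to 33.8 CPM in supraspinatus libraries, within or above the hindlimb range, while Prc1 stays at 7.54 to 12.3 CPM there.

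Between the 2 forelimb tendons, 6 members were higher in supraspinatus than in flexor tendon and 0 were lower, where 24.3% and 23.4% of all genes passed. These were Tpx2, Cenpf (1.22 ± 0.43), Kif23 (1.15 ± 0.35), Prc1 (1.07 ± 0.29), Top2a (0.97 ± 0.34) and Kif11 (0.88 ± 0.32), values being log2 differences with SE. The median difference over the members was 0.478, against 0.0264 over all genes. Of the 35, 6 members, namely Cenpf, Tpx2, Kif11, Hmmr, Kif23 and Prc1, had every supraspinatus library above every flexor library, which held for 24.4% of all genes. Prc1 averaged 9.48 ± 2.01 CPM in the supraspinatus libraries and 4.51 ± 0.984 in the flexor libraries (SD, n = 4 each; adjusted p = 0.00679). This count rested on the scaling and the libraries: it was 2 higher and 1 lower (Smc2) with library totals in place of the trimmed mean, when the median of all genes moved to -0.31, and 1 (Tpx2) with the muscle covariate. It was 10 without Achilles 1, 2 without supraspinatus 3 and 3 without flexor 4. Of all 16948 genes, 1830 were higher and 6591 lower with library totals, and 3071 were higher with the muscle covariate. Without Achilles 1, supraspinatus 3 or flexor 4, the numbers higher were 4292 of 17153, 3881 of 17260 and 4034 of 17173.

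Between the 2 hindlimb tendons no difference was detected: 0 of 35 members passed the test for Achilles against patellar tendon (3.1% of all genes higher and 2.06% lower), 0 at an unadjusted p under 0.05, and 0 by DESeq2 or limma-voom. The smallest unadjusted p was 0.0597, for Ncaph, with a log2 difference of 0.55 ± 0.27 (SE) and an adjusted p of 0.243. Leaving out any 1 library, Achilles 1 included, also gave 0 at the adjusted threshold. The authors' deposited table held smaller unadjusted p-values for this pair, given below. All 35 members overlapped between these 2 tendons, where 6.69% of all genes were above and 5.82% below without overlap. The median log2 difference was 0.279, with 33 of 35 members above 0 and 2 below. The members rose and fell together among libraries, so these signs are not separate observations.

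Some libraries were lowest or highest of their tendon for most members. Achilles 1 had the lowest level of the 4 Achilles libraries for 35 of 35 members, and Achilles 4 the highest for 32, the exceptions being Cenpa, Espl1 and Kif11. Patellar 4 had the highest of its tendon for 34 of 35, with Espl1 the exception, and Patellar 1 the lowest for 20. In the forelimb the highest library was split: flexor 2 was highest for 20 members and flexor 3 for 9, and supraspinatus 3 for 17 and supraspinatus 2 for 13. Flexor 4 was lowest for 19 and supraspinatus 4 for 20. Over all genes, Achilles 1 was lowest for 35.4%, Achilles 4 highest for 33.2%, Patellar 4 highest for 30.2% and Patellar 1 lowest for 35.1%. Flexor 2 was highest for 24.1% and supraspinatus 3 for 21.4% of all genes, and flexor 4 was lowest for 24.2% and supraspinatus 4 for 29.1%. The ratio of the highest to the lowest library of a tendon had a median over members of 1.73 in flexor, 1.86 in supraspinatus, 2.73 in Achilles and 1.72 in patellar tendon. It was largest for Ccna2 in Achilles, at 7.62, and Bub1b in supraspinatus tendon, at 7.21.

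**Figure D5:**
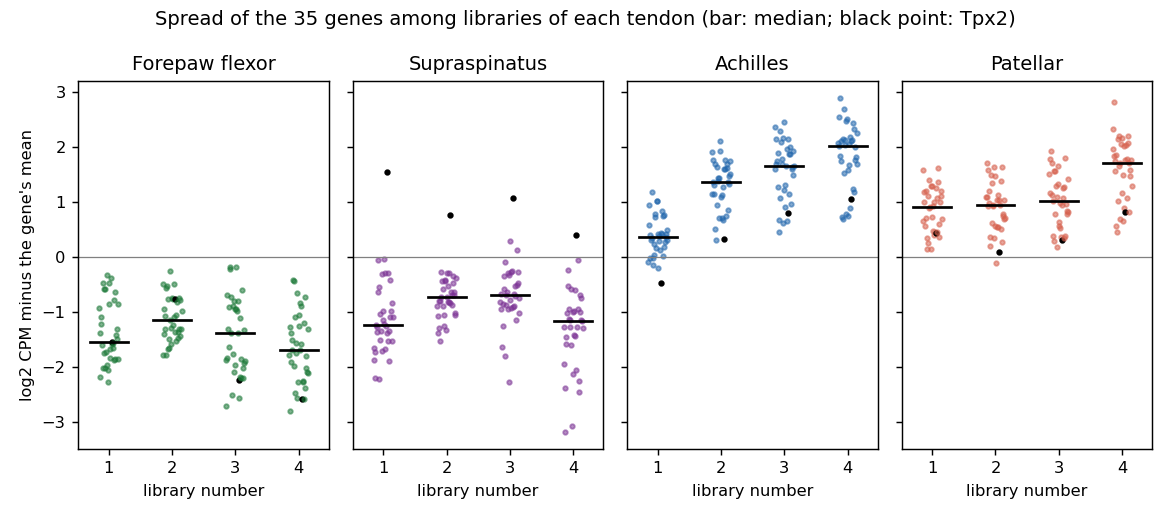
Each point is 1 of 35 genes in 1 library, as log2 CPM minus the mean of that gene over 16 libraries, with the median as a bar and Tpx2 in black. Achilles 1 has a median of 0.36, against 1.37, 1.65 and 2.01 in the other Achilles libraries, and the flexor and supraspinatus medians all lie below 0.

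The authors' deposited table, which lists 12588 genes, held 34 of the 36 members, and neither Ccnb2 nor Cenpa. In the authors' deposited table flexor tendon was below Achilles and patellar tendon for 34 of 34 at an adjusted p under 0.05, and supraspinatus tendon below each for 33, Tpx2 being the other. For flexor against supraspinatus, a negative value means lower in flexor tendon. There the authors' deposited table had 14 members below 0 past that threshold and 20 not passing. The count found here was 6 with all 16 libraries and 10 without Achilles 1. The model behind the authors' values is not known here, nor whether all 16 libraries entered it. For Mki67, Achilles against flexor was 2.86 in the authors' deposited table, and flexor minus Achilles was -2.53 here. Flexor against patellar was -2.59 there and -2.54 here. For Tpx2, Achilles against supraspinatus was -0.25 in the authors' deposited table. Supraspinatus minus Achilles was 0.48 here, and 0.25 without Achilles 1. Which libraries the authors used was not tested. For Tpx2, flexor against supraspinatus was -2.67 (adjusted p = 5.27e-05, the authors' deposited table). For Achilles against patellar tendon, 34 of 34 members did not pass in the authors' deposited table. The smallest unadjusted p there was 0.0037, for Kif20a, with a log2 difference of 0.546 and an adjusted p of 0.055. Other members too had an unadjusted p under 0.05 there, among them Cdc20 (0.00592), Anln (0.0121) and Prc1 (0.0124), each higher in Achilles. Ncapg alone was below 0, at -0.0707. In the fit used here, 0 of 35 members had an unadjusted p under 0.05 for this pair.

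Other genes of mitosis followed in part. Of 106 measured from a list of 110, 84 were lower and 10 higher in forelimb tendons (28.5% and 30.3% of all genes), with a median log2 difference of -1.54. Other cytokinesis genes were lower in 9 of 9, led by Depdc1 at -3.53 ± 0.28, and other kinetochore and centromere genes in 25 of 27, led by Cenpw, the histone-fold kinetochore protein, at -3.73 ± 0.21 (SE). Other passenger and spindle genes were lower in 21 of 24, led by Troap at -3.38 ± 0.32, and the checkpoint, cohesion and anaphase list in 10 of 13, led by the ubiquitin-conjugating enzyme Ube2c at -3.22 ± 0.25. The kinetochore list and the passenger list each had 1 gene higher in the forelimb.

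Regulators of the set were counted in the same test, which 28.5% of all genes passed as lower and 30.3% as higher. Of 10 Cdk1 regulators, 8 were lower, among them the Cdk subunit Cks2 at -2.63 ± 0.25, and 2 were higher: Wee1, the kinase that inhibits Cdk1, at 1.22 ± 0.24, and the phosphatase Cdc25a at 0.44 ± 0.10 (SE). Of 14 activators and repressors of mitotic transcription, 7 were lower, with E2f7 at -3.08 ± 0.31, Mybl2 at -2.99 ± 0.31 and Foxm1 at -1.55 ± 0.19. Another 3 were higher, among them E2f2 at 0.56 ± 0.12 and Rbl2, a pocket protein of the DREAM complex, at 0.43 ± 0.05. Of 9 further condensin and cohesin genes 4 were lower and 3 higher, such as Ncapd3 at -0.98 ± 0.10 and Rad21 at 0.38 ± 0.05.

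Markers of other cells were counted in the same test, in which 28.5% of all genes were lower and 30.3% higher. Endothelial markers summed to 410 to 710 CPM in flexor and 619 to 1230 CPM in supraspinatus libraries, against 1240 to 1840 CPM in Achilles and 1510 to 2470 CPM in patellar libraries, and 8 of 8 were lower in the forelimb. Erythroid precursor markers summed to 29.8 to 104 CPM in flexor and 26.1 to 55.6 CPM in supraspinatus libraries. They summed to 261 to 334 CPM in Achilles and 296 to 541 CPM in patellar libraries, and 6 of 7 were lower in the forelimb. Hbb gave the highest count of these markers in each tendon, so the sum mostly follows Hbb. The highest Klf1 count in a library was 73 in flexor, 64 in supraspinatus, 75 in Achilles and 62 in patellar tendon. Granulocyte precursor markers summed to 0.443 to 0.598 CPM in flexor libraries and 0.135 to 0.573 in supraspinatus libraries, against 3.37 to 16.5 CPM in Achilles and 11.8 to 59.4 CPM in patellar libraries. Of the 8 granulocyte markers, 4 passed the filter on low counts, and all 4 were lower. Against Achilles alone, 2 of the 4 were lower in flexor (23.5% of all genes) and 2 in supraspinatus tendon (25.4%). A marker near 0 in the forelimb can pass the filter through hindlimb libraries alone, and could then be called in no other direction. Mpo gave the highest count of these markers in both hindlimb tendons, so the sum there mostly follows Mpo. The highest count of Mpo in a library was 37 in flexor and 18 in supraspinatus, against 1787 in Achilles and 4046 in patellar tendon. Elane and Prtn3 were at 0 in all supraspinatus libraries. Ctsg was at 0 in all forelimb libraries and reached 2 counts in a hindlimb library, and Ms4a3 was at 0 in all forelimb and patellar libraries and reached 1 count in Achilles. Lymphocyte markers were lower in 7 of 7, macrophage markers in 2 of 6, osteoblast markers in 2 of 5 and keratinocyte markers in 1 of 4, with none of these higher. Against Achilles alone, 3 of the 7 lymphocyte markers were lower in flexor (23.5% of all genes) and 3 in supraspinatus tendon (25.4%). Lymphocyte sums were 27.5 to 38.7 CPM in flexor and 16.7 to 35.2 in supraspinatus libraries. They overlapped the hindlimb sums, 38.2 to 49.3 CPM in Achilles and 33.1 to 65.7 in patellar libraries. The highest Ms4a1 count in a library was 3 in either forelimb tendon, 26 in Achilles and 92 in patellar tendon. Chondrocyte markers were higher in the forelimb in 2 of 6 and lower in 0. Against Achilles alone, 1 of the 6 was higher and 3 lower in flexor tendon, and 4 higher and 0 lower in supraspinatus tendon. Of all 16948 genes, 4089 were higher and 3987 lower in flexor, and 4185 and 4312 in supraspinatus tendon. Against patellar alone, osteoblast markers were lower in 3 of 5 in flexor and higher in 2 of 5 in supraspinatus tendon. In those directions 4188 and 4668 of all genes passed. The part of all these cells in the level of the mitosis genes was not tested.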

How the data were processed

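The authors deposited a table of whole-number counts per gene, 1 column per library, and a table of their own comparisons with log2 fold changes and p-values, unadjusted and adjusted, per the file headers. The submitters' processing notes name HISAT2, FastQC, edgeR and rn6, with no version or role. How reads were counted, with which annotation and strand, is not given in the sources used here.

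From the counts, genes were filtered with filterByExpr (minimum count 10, minimum total 15), scaled by TMM and fitted with 1 coefficient per tendon over all 16 libraries (edgeR 4.0.16, R 4.3.3, quasi-likelihood test, 12 residual degrees of freedom). Adjusted p-values (Benjamini-Hochberg) were taken over 16948 genes in each comparison, with calls made under 0.05. Each SE is the absolute log2 fold change divided by the root of its F value. For log2 CPM a prior count of 2 was added. Forelimb against hindlimb is the mean log2 level of flexor and supraspinatus minus that of Achilles and patellar tendon. The fit was tested on simulated data.

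Members and lists were chosen with earlier results of these data known. Levels in every library were given for Tpx2, for members whose mean in a forelimb tendon was above that in a hindlimb tendon, for the largest and smallest folds, and for the first-listed and the highest member of each role; Espl1 was added after its values were seen. For the other lists up to 4 genes each by largest and smallest fold were planned, and some lists gave the largest fold alone. Foxm1 was named beyond the 4 planned for its list, and Cit was added after its values were seen. Genes were listed as most like a pattern if their mean was at least 1 CPM. Of these, 1 gene is not reported here. Replicate numbers recur in every tendon, but not every same-number correlation of deviations was above 0.1, and the reported fit has no block. Alternatives were median-of-ratios factors, library totals, no filter, 1 CPM in 8 libraries, DESeq2 1.42.0, limma-voom (limma 3.58.1), a replicate block, a muscle covariate, a 2-fold threshold and leaving out each library. Fits without Achilles 1 and Patellar 1 together and with Mylk2 as covariate were chosen after seeing the data. Figures used Python 3.11.15 and matplotlib 3.10.9.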

Additional observations from a re-analysis of the deposited data

Results flagged for a closer look

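Among the 140 groups of 4 libraries formed by 35 members and 4 tendons, 10 (7.14%) had 1 library set apart, its gap to the nearest library taking a larger share of the group's range than Dixon's critical value. Chance flags about 1 in 20 separate groups. The members rose and fell together among libraries, so these groups are not separate and their share cannot be set against that rate. Of the 10 flagged groups, 8 were in patellar tendon and each had Patellar 4 as the high library. Patellar 4 had 22.2 CPM for Cdk1, next to 14.1 CPM in the nearest library, 38.2 CPM for Smc2 (nearest 33.4), 15 CPM for Aurkb (nearest 7.83) and 7.1 CPM for Birc5 (nearest 3.56). It also had 18.9 CPM for Kif11 (nearest 11), 7.09 CPM for Kif2c (nearest 4.37), 28.4 CPM for Kif20a (nearest 21) and 7.39 CPM for Anln (nearest 5.33). In flexor tendon, Flexor 3 had 3.85 CPM for Cdk1 (nearest 2.58) and Flexor 2 had 1.04 CPM for Ndc80 (nearest 0.868).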

How the results depend on the processing

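The count differing among the tendons was 34 with the filter of 1 CPM in 8 libraries, which removed Cenpa, 34 at 2-fold and 35 under the other alternatives run. The count lower in forelimb was 34 to 35, and 31 at 2-fold. Of all 16948 genes, 4831 were lower in forelimb as reported, 7221 with library totals and 1806 with the muscle covariate. Leaving out 1 library gave 35 for flexor against either hindlimb tendon, 33 to 34 for supraspinatus against Achilles and 32 to 34 against patellar, and 2 to 10 members higher in supraspinatus than in flexor tendon. That count, 6 as reported, was 2 with library totals (with 1 lower, Smc2), 2 with limma-voom and 1 with the muscle covariate. It was 9 with DESeq2 and 13 without Achilles 1 and Patellar 1 together. Of all 16948 genes, 4118 were higher as reported, 1830 with library totals (6591 lower) and 4146 with limma-voom. The number was 3071 with the muscle covariate, 4489 with DESeq2 and 5010 of 17064 without Achilles 1 and Patellar 1. The causes were not tested. With library totals the median of all genes moved to -0.22 for forelimb against hindlimb.

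The replicate block gave 35 members lower in forelimb, 34 in each supraspinatus pair and 6 higher in supraspinatus than flexor tendon. Those 6 differed from the reported 6: Kif11 no longer passed edgeR's test (adjusted p = 0.0515) and Ncaph did (adjusted p = 0.0151). The replicate numbers were not taken to pair the samples, since not every same-number correlation of deviations was above 0.1: of 24, from -0.21 to 0.37, 9 were, and in 10 of the 24 the library correlated best with its own number. Within a limb 3 of 4 numbers were above 0.1, both for supraspinatus against flexor and for Achilles against patellar tendon, and best matched, a hint from the data and not the design. Tpx2 in forelimb against hindlimb was called without each of the 16 libraries in turn (adjusted p of 0.0033 to 0.0497). It was not called with either covariate, where the difference was -1.41 (muscle markers) and -1.57 (Mylk2), against -0.79 as reported. Depth limits Cenpa most, with 9 counts in its lowest library.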
